A study of Mus musculus with 15 samples.

Results

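The chemokines Ccl22 and Ccl17, the cytokine subunit Il12b, the receptors Ccr7, Xcr1 and Cd209a, the surface glycoprotein Cd83 and the actin-bundling gene Fscn1 mark dendritic cells, most of them mature ones. These 8 genes, chosen by name out of 57010 in the deposited tables, are described in mouse lung. The samples are 15 RNA libraries of lung tissue, all from C57BL/J mice. The silica_DMSO group (n = 4) was given a suspension of silica as nasal drops and a solution of DMSO (dimethyl sulfoxide) on the second day. The silica group (n = 3) received silica, the DMSO group (n = 4) DMSO and the control group (n = 4) physiological saline. Lungs were taken at day 30, and the age of the mice is not given in the labels. The labels carry no transgene or deletion and do not say that libraries come from separate animals, so p-values measure the spread between libraries, which may be technical.

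Dendritic cells take up antigen in tissue, mature on contact with danger or microbial signals, and travel through lymph to the lymph node, where they prime T cells. During maturation they switch on Ccr7, which guides them along its ligands CCL19 and CCL21, together with Fscn1, Cd83 and chemokines that draw in T cells. In the lung this migratory state can be reached by both type 1 conventional dendritic cells, which carry Xcr1, and type 2 conventional dendritic cells. Mature dendritic cells with the same chemokines also populate the medulla of the thymus.

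Library depth was even, at 17434649 to 20829960 counts. The libraries labelled DMSO 7, silica_DMSO 4 and silica_DMSO 6 stood apart. Rag1, the recombinase of immature lymphocytes, reached 459, 392 and 682 TPM (a transcript level scaled by gene length and library) in silica_DMSO 4, silica_DMSO 6 and DMSO 7, against at most 0.04 TPM in the other 12 libraries. In the same order Foxn1, the regulator of thymic epithelium, had 9.74, 5.56 and 3.49 TPM, against 0 in each of the 12. The summed TPM of 11 lung epithelial markers ran from 2869 to 69795 in these 3 thymus-like libraries, against 95981 to 409224 in the 12 others, which are called lung libraries here. Comparisons between groups were therefore fitted on the 12 lung libraries, with 2 of silica_DMSO, 3 of silica, 3 of DMSO and 4 of control. The lung libraries also differed in the share of counts in genes longer than 3000 bases, which was 11.5% to 24.2% in silica_DMSO 5, silica 7, DMSO 1, DMSO 4 and control 1 and 34.0% to 44.9% in the other 7. The extraction note in the labels speaks of retinas, while 7 photoreceptor markers summed to between 0.05 and 1.83 TPM per library.

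Ccl22 and Ccl17 are neighbours on chromosome 8, in the same orientation, with Cx3cl1 as the 1 coding gene between them, and encode the ligands of 1 receptor, CCR4. The ratio of Ccl22 to Ccl17 TPM ran from 0.0219 to 1.99 over the 15 libraries, so the promoters of both are shown, 250 bases up to the annotated start, from RefSeq for GRCm38.p6, which is not the mm8 build that the submitters' processing notes name. The windows are chr8:94745434-94745683 for Ccl22 and chr8:94810203-94810452 for Ccl17, both on the plus strand.
Ccl22: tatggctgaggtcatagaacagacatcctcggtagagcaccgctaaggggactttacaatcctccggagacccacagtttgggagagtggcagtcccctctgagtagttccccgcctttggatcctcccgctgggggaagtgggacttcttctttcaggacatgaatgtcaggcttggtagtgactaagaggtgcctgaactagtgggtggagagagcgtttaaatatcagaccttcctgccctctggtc
Ccl17: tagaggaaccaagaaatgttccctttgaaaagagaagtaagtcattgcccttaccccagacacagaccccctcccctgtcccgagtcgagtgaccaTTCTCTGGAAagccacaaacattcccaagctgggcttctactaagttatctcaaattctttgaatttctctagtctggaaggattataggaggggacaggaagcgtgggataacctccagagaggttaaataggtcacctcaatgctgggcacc
Capitals mark the spacing of half-sites that STAT6 favours, TTC and GAA with 4 bases of any kind between them, searched on both strands. The match in Ccl17 lies from 154 to 145 bases before the start and reads TTCTCTGGAA. The Ccl22 window holds no such run of letters, and neither do those of Fscn1, Il12b, Xcr1 and Cd209a. Of 32851 mouse promoter windows of the same length, 5.85% hold it. The NF-kB consensus, present in 3.90% of windows, and the PU.1 sequence GAGGAAGT, present in 2.44%, were found in none of the 6 windows. These matches describe letters in a window, and binding was not measured.

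All 8 genes were detected in lung. Ordered by their median over the 12 lung libraries, Ccl17 came first with 53.1 TPM (24.5 to 150). Ccr7 followed with 10.7 TPM (3.22 to 22.5), and its range lay below that of Ccl17. Cd83 had a median of 9.94 TPM (4.77 to 24.4), Fscn1 of 7.93 TPM (0.62 to 43.8) and Ccl22 of 7.66 TPM (3.28 to 24.9). Cd209a followed with 5.21 TPM (0.65 to 11.3), Xcr1 with 1.26 TPM (0.23 to 3.54) and Il12b with 0.84 TPM (0 to 4.70). From Ccr7 downward each gene overlapped its neighbour in this order over the full range of libraries. The plot of TPM by library shows that the highest lung values of Ccl22, Fscn1 and Il12b were those of silica 1, as were those of Cd83 and Xcr1. That library stood apart from the other 11 in Scgb1a1, the club cell secretoglobin, at 57189 TPM against 208415 to 369259 TPM. Its sums of B cell (291 TPM) and macrophage (1451 TPM) markers were the highest in lung. So were its sums for dendritic cell maturation (1081 TPM), type 2 (319 TPM) and all conventional dendritic cells (99.7 TPM), and lymph node and thymus stroma (437 TPM). The sums of type 1, plasmacytoid dendritic cell and T cell markers were highest in other lung libraries.

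**Figure D1:**
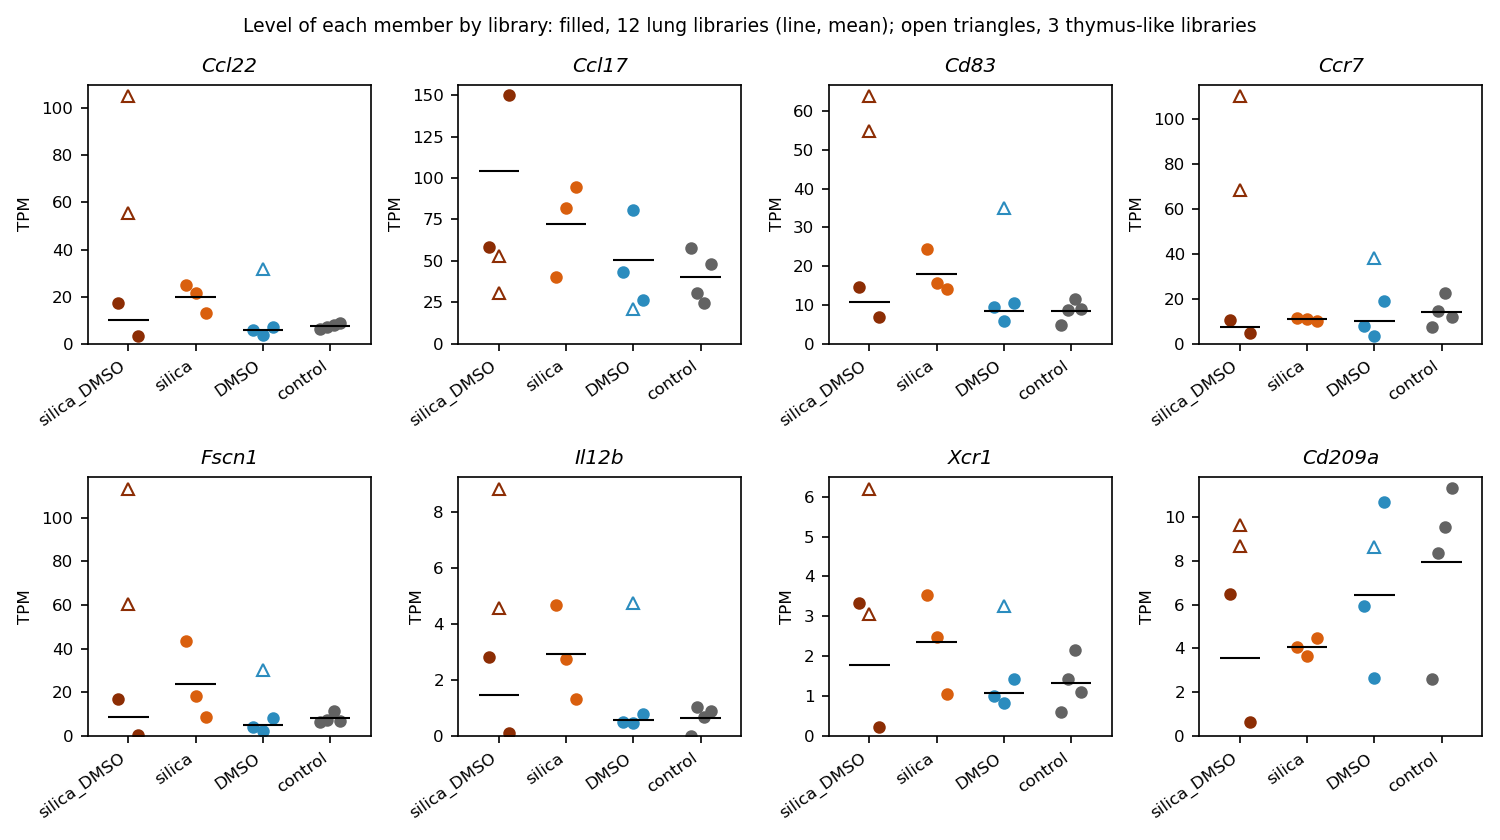
TPM (y axis) of each of the 8 genes in every library, by group (x axis). Filled points are lung libraries, the line is their mean, and open triangles are the thymus-like libraries. All silica points of Ccl22 (12.9 to 24.9 TPM) lie above all control points (6.16 to 8.62 TPM).

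Silica alone was set against saline first. Ccl22, Cd83, Fscn1, Il12b and Xcr1, 5 of the 8 genes, were higher in all 3 silica libraries than in any control library when counts were scaled by TMM, which sets libraries level by their middle genes. The same held for 5.41% of all genes. At an adjusted p under 0.05, edgeR's quasi-likelihood test called 0 of the 8, and 0.0113% of the 17630 genes tested (1055 at an unadjusted p under 0.05). Ccl22 was nearest, at 2.55 times its control level. Ccr7, Ccl17 and Cd209a overlapped between the groups. In lung tissue as a whole, more dendritic cells, more RNA per dendritic cell and RNA from other cells cannot be told apart.

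Ccl22, a chemokine of mature dendritic cells and of macrophages that attracts CCR4-bearing T cells, stood at 17.3 and 3.28 TPM in silica_DMSO 2 and 5 and at 24.9, 21.4 and 12.9 TPM in silica 1, 2 and 7. Without silica it had 6.0, 3.89 and 7.19 TPM in DMSO 1, 4 and 6 and 6.16, 6.88, 8.13 and 8.62 TPM in control 1, 2, 4 and 7. Every silica library was above every control, while silica_DMSO 5 was the lowest of all 12 in TPM. Its CPM of the library total was 14.6, against 14.2 in control 4, and its TMM factor was 0.506, where those of the others ran up to 1.29. Normalised CPM, counts scaled to a common library size, were 28.8 ± 0.123 in silica_DMSO (SD, n = 2), 39.5 ± 4.35 in silica (n = 3), 19.9 ± 6.07 in DMSO (n = 3) and 15.5 ± 4.42 in control (n = 4). On this scale the 5 lung libraries given silica, from 28.7 to 42.9, all exceeded the 7 without it, from 11.7 to 25.8, as did those of 0.624% of genes. In TPM they did not. On the log2 scale the difference was 1.35 ± 0.29 (SE) for silica against control (edgeR adjusted p = 0.213) and 0.94 ± 0.23 for libraries with silica against those without (edgeR adjusted p = 0.278). DESeq2 called both, at 1.36 ± 0.32 (adjusted p = 0.00597, with 0.464% of genes called) and 0.97 ± 0.25 (adjusted p = 0.0224, with 0.392% called). EdgeR with the share of counts in long genes as a covariate called them as well, at 1.32 ± 0.20 (adjusted p = 0.0407, with 0.272% called) and 0.98 ± 0.16 (adjusted p = 0.0296, with 0.323% called).

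Ccl17, the partner chemokine of Ccl22 and the gene of highest TPM here, was at 58.2 and 150 TPM in silica_DMSO 2 and 5 and at 40.2, 81.7 and 94.7 TPM in silica 1, 2 and 7. It was at 43.5, 80.9 and 26.6 TPM in DMSO 1, 4 and 6 and at 58.0, 30.8, 24.5 and 48.3 TPM in control 1, 2, 4 and 7. The groups overlapped, and silica_DMSO 5 and DMSO 4 were the highest of their groups. Normalised CPM averaged 90.3 ± 112 in silica_DMSO (SD, n = 2), 20.7 ± 16.6 in silica (n = 3), 28.1 ± 29.8 in DMSO (n = 3) and 11.8 ± 10.3 in control (n = 4). Its log2 fold change of 0.81 ± 1.01 (SE) for silica against control did not pass (edgeR adjusted p = 1.00), and without silica 7 it was -0.011.

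Il12b, the p40 subunit shared by IL-12 and IL-23, was the scarcest of the 8 genes. It had 2.82 and 0.12 TPM in silica_DMSO 2 and 5 and 4.70, 2.74 and 1.31 TPM in silica 1, 2 and 7. In DMSO 1, 4 and 6 it had 0.51, 0.46 and 0.77 TPM, and in control 1, 2, 4 and 7 it had 0, 1.03, 0.66 and 0.91 TPM. The silica libraries lay above all controls on both scales. Control 1 held 0 counts, which allows up to 3 counts or 0.158 CPM by counting error. Normalised CPM averaged 4.40 ± 0.965 in silica (SD, n = 3) and 0.929 ± 0.701 in control (n = 4). The log2 fold change of 2.23 ± 0.86 (SE), which depends on how the 0 is treated, did not pass (edgeR adjusted p = 0.724).

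Cd83, a surface glycoprotein that rises on maturing dendritic cells and is also carried by activated B cells and thymic epithelium, had 14.7 and 6.82 TPM in silica_DMSO 2 and 5 and 24.4, 15.7 and 14.1 TPM in silica 1, 2 and 7. It had 9.48, 5.78 and 10.4 TPM in DMSO 1, 4 and 6 and 4.77, 8.65, 11.6 and 8.99 TPM in control 1, 2, 4 and 7. Silica and control did not overlap on either scale. Normalised CPM averaged 36.4 ± 6.88 in silica (SD, n = 3) and 16.3 ± 0.711 in control (n = 4), the control libraries being close to each other. A log2 fold change of 1.16 ± 0.33 (SE) did not pass (edgeR adjusted p = 0.456). In DMSO libraries Cd83 reached 29.6 ± 9.38 normalised CPM (SD, n = 3), also above all controls, as were 3.71% of genes, with a log2 fold change of 0.86 ± 0.33 (SE, edgeR adjusted p = 0.513).

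Fscn1 encodes fascin, which bundles actin in the dendrites of mature dendritic cells and is also made by other cell types. It had 17.1 and 0.62 TPM in silica_DMSO 2 and 5 and 43.8, 18.3 and 8.80 TPM in silica 1, 2 and 7. It had 4.25, 2.46 and 8.40 TPM in DMSO 1, 4 and 6 and 6.27, 7.46, 11.7 and 6.94 TPM in control 1, 2, 4 and 7. In TPM silica 7 lay within the control range. In normalised CPM the groups parted, with 37.9 ± 12.8 in silica (SD, n = 3) and 16.0 ± 3.66 in control (n = 4). A log2 fold change of 1.24 ± 0.43 (SE) did not pass (edgeR adjusted p = 0.640).

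Xcr1, the receptor of cross-presenting type 1 dendritic cells for XCL1, had 3.33 and 0.23 TPM in silica_DMSO 2 and 5 and 3.54, 2.48 and 1.05 TPM in silica 1, 2 and 7. It had 1.01, 0.82 and 1.42 TPM in DMSO 1, 4 and 6 and 0.60, 1.43, 2.16 and 1.09 TPM in control 1, 2, 4 and 7. Silica and control overlapped in TPM and parted in normalised CPM, at 9.55 ± 2.11 in silica (SD, n = 3) and 5.32 ± 1.08 in control (n = 4). This gave a log2 fold change of 0.84 ± 0.39 (SE, edgeR adjusted p = 0.852).

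Ccr7, the homing receptor of migrating dendritic cells and of naive T cells, had 10.4 and 4.70 TPM in silica_DMSO 2 and 5 and 11.5, 11.1 and 10.1 TPM in silica 1, 2 and 7. It had 7.94, 3.22 and 19.2 TPM in DMSO 1, 4 and 6 and 7.48, 14.5, 22.5 and 11.8 TPM in control 1, 2, 4 and 7. In TPM the 3 silica libraries lay inside the control range. In normalised CPM silica 7 (28.1) did, while silica 1 (14.0) and silica 2 (19.5) lay below all controls (20.0 to 28.3). Normalised CPM averaged 20.5 ± 7.08 in silica (SD, n = 3) and 23.4 ± 3.51 in control (n = 4). Its log2 fold change of -0.19 ± 0.36 (SE) did not pass (edgeR adjusted p = 1.00), and without silica 1 it was 0.021.

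Cd209a, a C-type lectin of monocyte-derived and type 2 dendritic cells, had 6.49 and 0.65 TPM in silica_DMSO 2 and 5 and 4.05, 3.65 and 4.47 TPM in silica 1, 2 and 7. It had 5.94, 2.65 and 10.7 TPM in DMSO 1, 4 and 6 and 2.58, 8.33, 9.52 and 11.3 TPM in control 1, 2, 4 and 7. Here, in TPM, 3 of the 4 controls exceeded all silica libraries and control 1 was below them. In normalised CPM control 1 (5.57) lay above silica 1 (3.47) and silica 2 (4.21), and silica 7 (8.71) above control 4 (8.33). Normalised CPM averaged 5.46 ± 2.84 in silica (SD, n = 3) and 8.92 ± 2.98 in control (n = 4). The log2 fold change of -0.71 ± 0.41 (SE) did not pass (edgeR adjusted p = 0.970).

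In normalised CPM 0 of the 8 genes lay wholly below control in silica, against 5.19% of all genes. In TPM, 3 of the 8 (Ccl22, Cd83 and Il12b) lay wholly above control, against 2.72% of all genes, and 0 wholly below, against 3.17%. The median log2 fold change of the 8 genes was 1.00, and that of all genes tested was -0.030. Without silica 1, Ccl22 stood at 1.43, Cd83 at 1.21, Fscn1 at 0.94, Il12b at 2.06 and Xcr1 at 0.75. Of 11 macrophage markers, 0 were called and 5 lay wholly above control in silica in normalised CPM, against 5.41% of all genes. Their summed TPM ran from 788 to 1451 in silica and from 621 to 832 in control, which overlap, and Cd68, their lysosomal marker, had a log2 fold change of 2.39 ± 0.43 (SE, edgeR adjusted p = 0.132). T cell markers summed to between 104 and 221 TPM in silica and between 71.6 and 268 TPM in control. The part of macrophages and other cells in the levels of Ccl22, Cd83 and Fscn1 was not tested.

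**Figure D2:**
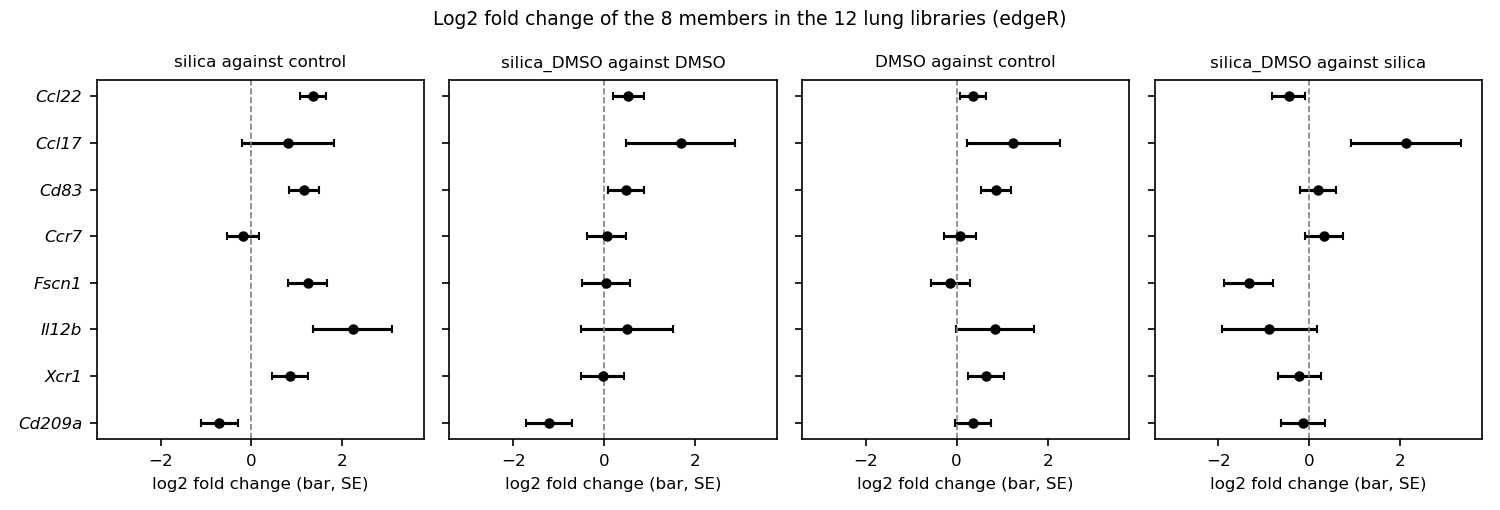
Log2 fold change of the 8 genes (points) with its SE (bars) from edgeR on the 12 lung libraries, in 4 comparisons; the dashed line marks no change. For silica against control 6 of 8 points are positive, from 0.81 (Ccl17) to 2.23 (Il12b), and Ccr7 and Cd209a are negative.

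In the 3 comparisons with DMSO edgeR called 0 of the 8 genes. For silica_DMSO against DMSO, the effect of silica where DMSO was given (0% of genes called, 335 at an unadjusted p under 0.05) Ccl22 was higher in both silica_DMSO lung libraries than in all 3 DMSO libraries in normalised CPM, as were 4.73% of genes, with a log2 fold change of 0.54 ± 0.35. Cd209a was lower in both, as were 5.03% of genes, with 4.90 ± 2.19 normalised CPM in silica_DMSO (SD, n = 2) and 11.4 ± 0.832 in DMSO (n = 3). Its log2 fold change of -1.21 ± 0.50 (SE) had an unadjusted edgeR p of 0.0325 and an edgeR adjusted p of 1.00. Ccl17 had the largest value, 1.69 ± 1.20, which turned to -1.37 without silica_DMSO 5. The other 5 genes stood at 0.49 (Cd83), 0.06 (Ccr7), 0.04 (Fscn1), 0.50 (Il12b) and -0.03 (Xcr1), of which Cd83 and Ccr7 turned negative and Xcr1 positive without silica_DMSO 5, and Fscn1 and Il12b negative without silica_DMSO 2. By library totals Ccr7 and Xcr1 stood at -0.39 and 0.21. In TPM 0 of the 8 genes parted these groups, against 1.95% of genes higher and 1.78% lower.

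For DMSO against control, the effect of DMSO without silica, edgeR called 0% of genes (1519 at an unadjusted p under 0.05). In normalised CPM Cd83 was the 1 gene of the 8 wholly higher, against 3.71% of all genes. Of the 8, 0 were wholly lower, against 3.98% of all genes. In TPM 0 of the 8 parted these groups, against 1.08% of genes higher and 5.05% lower. Log2 fold changes of Ccl22, Ccr7, Fscn1 and Cd209a were between -0.14 and 0.36, with SE between 0.29 and 0.44. Il12b stood at 0.84 ± 0.87 and Xcr1 at 0.64 ± 0.39. Ccl17, at 1.25 ± 1.01, turned to -0.070 without DMSO 4. Scaling by library totals in place of TMM moved the median log2 fold change of all genes to -0.29 here and to -0.37 for silica_DMSO against silica, and the value of Ccr7 to -0.13 here, from a TMM value of 0.08.

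For silica_DMSO against silica (0% of genes called, 342 at an unadjusted p under 0.05), the comparison of DMSO in lungs given silica, Fscn1 and Ccl22 were lower in both silica_DMSO lung libraries than in all 3 silica libraries in normalised CPM, as were 3.83% of genes. Of the 8, 0 were wholly higher, against 2.78% of genes. Fscn1 averaged 14.9 ± 13.5 normalised CPM in silica_DMSO (SD, n = 2) and 37.9 ± 12.8 in silica (n = 3), a log2 fold change of -1.34 ± 0.54 (SE, edgeR adjusted p = 0.997). Without silica_DMSO 2 the value of Fscn1 was -2.83 and without silica_DMSO 5 it was -0.63. Ccl22 stood at -0.45 ± 0.35, and with all 15 libraries, thymus-like ones included, at 0.90. In TPM 0 of the 8 genes parted these groups, against 0.72% of genes wholly higher and 3.02% wholly lower. Ccl17 (2.12 ± 1.21), Cd83 (0.19 ± 0.39) and Ccr7 (0.32 ± 0.42) were positive and turned to -0.92, -0.58 and -0.43 without silica_DMSO 5. Scaled by library totals, Cd83 and Ccr7 stood at -0.46 and -0.29. Il12b (-0.88 ± 1.04), Xcr1 (-0.22 ± 0.47) and Cd209a (-0.15 ± 0.48) were negative, and Xcr1 and Cd209a turned positive without silica_DMSO 5, and Cd209a also without silica 7.

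Over the 5 lung libraries with silica and the 7 without, edgeR called 0 of the 8 genes and 0.0908% of all genes. Ccl22 was the 1 gene of the 8 wholly higher in normalised CPM, against 0.624% of genes, and 0 were wholly lower, against 0.0794%. In TPM 0 of the 8 parted, against 0.369% of genes higher and 0.017% lower. The other 7 stood at 1.25 ± 0.78 (Ccl17), 0.82 ± 0.26 (Cd83), -0.07 ± 0.28 (Ccr7), 0.64 ± 0.33 (Fscn1), 1.36 ± 0.66 (Il12b), 0.41 ± 0.31 (Xcr1) and -0.96 ± 0.32 (Cd209a). Ccl17 turned to -0.27 without silica_DMSO 5, Fscn1 to -0.11 and Xcr1 to -0.077 without silica_DMSO 2, and Ccr7 turned positive without silica_DMSO 2, silica 1 or DMSO 6. The difference between the silica effects with and without DMSO was tested as an interaction, for which edgeR called 0 genes in all and 0 of the 8 (485 genes at an unadjusted p under 0.05). It was -0.81 ± 0.46 for Ccl22 and -1.20 ± 0.68 for Fscn1 (log2 scale, SE, edgeR adjusted p = 1.00 for both). For the other 6 genes it lay between -1.72 ± 1.36 (Il12b) and 0.87 ± 1.58 (Ccl17).

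The share of counts in long genes moved with part of these values. In the edgeR fit with this share as a covariate, added after the data were seen as a test of its own, Ccl17 fell by 1.58 ± 0.08 on the log2 scale for each SD of the share, which was 11.4% of counts (adjusted p = 2.81e-06). Cd83 fell by 0.35 ± 0.09 (edgeR adjusted p = 0.00781) and Ccl22 by 0.24 ± 0.09 (edgeR adjusted p = 0.0494). The other 5 members were not called, and 51.4% of all genes were, 25.2% with a lower level at a higher share. Ccl17, at 514 bases, is the shortest of the 8 genes, and the others run from 1482 bases (Cd209a) to 4453 bases (Xcr1). In TPM, which is scaled by length, Ccl17 had a median of 80.9 in the 5 libraries of low share (43.5 to 150) and of 40.2 in the other 7 (24.5 to 81.7). The other 7 genes showed the opposite order of medians. Of them Ccr7 did not overlap, with 3.22 to 10.1 TPM in the 5 and 10.4 to 22.5 TPM in the 7. Nor did Xcr1, with 0.23 to 1.05 TPM and 1.09 to 3.54 TPM. The share of all genes with that order of medians, or without overlap, was not counted, so no result about the members is drawn. With the covariate, Ccl17 was called higher in the libraries with silica than in those without (0.96 ± 0.13, SE, edgeR adjusted p = 0.0112, with 0.323% of genes called). In the same fit Ccl17 for DMSO against control was -0.65, where the fit without it gave 1.25. In the 7 libraries of higher share alone, Ccl22 and Fscn1 stood 1.56 ± 0.24 and 1.65 ± 0.25 above control in silica (log2 scale, SE, edgeR adjusted p = 0.0614 for both), a choice made after the data were seen.

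**Figure D3:**
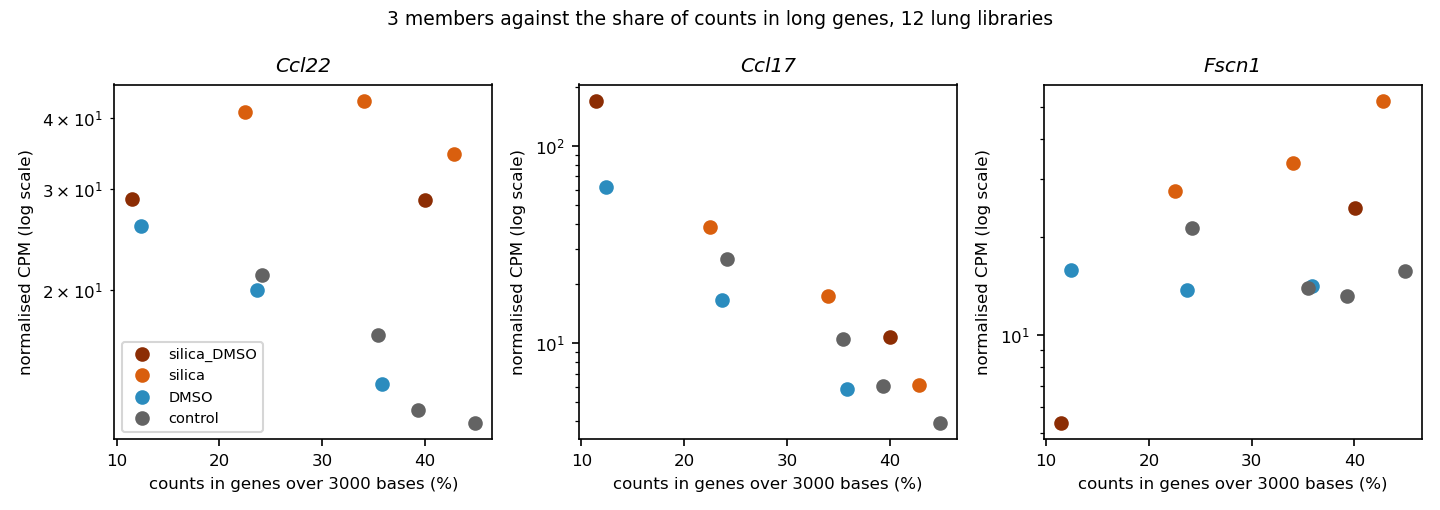
Normalised CPM (y axis, log scale) of Ccl22, Ccl17 and Fscn1 in the 12 lung libraries against the share of each library's counts in genes longer than 3000 bases (x axis, %), coloured by group. Ccl17 runs from 170 at the lowest share to 3.93 at the highest, and the Ccl22 points of silica lie above all others.

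In the 3 thymus-like libraries, set apart by Rag1 and Foxn1 and not by these 8 genes, 3 of the 8 were above the whole lung range in each library. The share of all genes doing so was not counted, so no result about the 8 as a set is drawn. Ccl22 had 105, 55.7 and 31.8 TPM in silica_DMSO 4, silica_DMSO 6 and DMSO 7, against at most 24.9 TPM in lung. Ccr7 had 110, 68.4 and 38.3 TPM, against at most 22.5 TPM in lung. Cd83 had 55.0, 63.9 and 35.1 TPM, against at most 24.4 TPM in lung. The lowest of these values, in each case, was that of DMSO 7. TPM are shares of a library. Scgb1a1 took 22464.5, 2580 and 55996 TPM in silica_DMSO 4, silica_DMSO 6 and DMSO 7. It took 57189 TPM in silica 1 and 208415 to 369259 TPM in the other 11 lung libraries, which leaves less for other genes.

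Fscn1 reached 113, 60.3 and 30.1 TPM in the same order, above the lung maximum of 43.8 TPM in 2 of 3. Il12b had 8.83, 4.56 and 4.76 TPM, above the lung maximum of 4.70 TPM in 2 of 3. In CPM of the library total it had 13.2, 7.29 and 6.70, against at most 6.89 in lung (silica 1). On that scale silica_DMSO 6 was above the lung range and DMSO 7 within it, the reverse of TPM. Xcr1, at 6.20, 3.06 and 3.26 TPM, was above its lung maximum of 3.54 TPM in 1 of 3. Cd209a (8.69, 9.65 and 8.62 TPM) stayed within the lung range. Ccl17 (52.8, 30.8 and 20.8 TPM) was within it in 2 of 3 and below its lung minimum of 24.5 TPM in DMSO 7. As multiples of the lung median, Ccl22 stood at 13.7, 7.27 and 4.15 and Ccl17 at 0.995, 0.579 and 0.391. The ratio of Ccl22 to Ccl17 TPM was thus 1.99, 1.81 and 1.53 in the thymus-like libraries, against 0.0219 to 0.619 in lung.

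Ligands, receptors and partners of the 8 genes were listed together with Cd209b to Cd209g, relatives of Cd209a. Of 17 such genes in the table, 7 were above the lung range in all 3 libraries and 0 below it in all 3. Cd209d and Cd209e were among the 7. Here too the share of all genes was not counted. Those named here were chosen after their values were seen. Ccr4, the receptor of CCL22 and CCL17, had 21.5, 16.1 and 16.0 TPM in silica_DMSO 4, silica_DMSO 6 and DMSO 7, against 0.05 to 1.33 TPM in lung. Ccl21a, which encodes a CCR7 ligand of lymphoid stroma and has near-identical copies among which reads can be split, had 1504, 893 and 360 TPM, against 64.5 to 226 TPM in lung. Il23a, the partner of Il12b in IL-23, had 10.3, 5.70 and 2.58 TPM, against 0.01 to 0.80 TPM. Xcl1, the ligand of XCR1, had 29.5, 18.5 and 11.2 TPM, against 1.67 to 12.03 TPM, so that DMSO 7 was within the lung range. The 11 T cell markers summed to between 3681 and 4855 TPM in the 3 libraries and between 55.4 and 268 TPM in lung. The 9 thymocyte markers summed to between 3446 and 4203 TPM, against 2.40 to 36.3 TPM in lung. Mature T cells and thymocytes were not told apart, and Ccr7 and Ccr4 are T cell genes too. How much of the Ccr7 level came from T cells or thymocytes was not tested. No test was run between these libraries and lung, since they carry the labels of 2 groups.

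**Figure D4:**
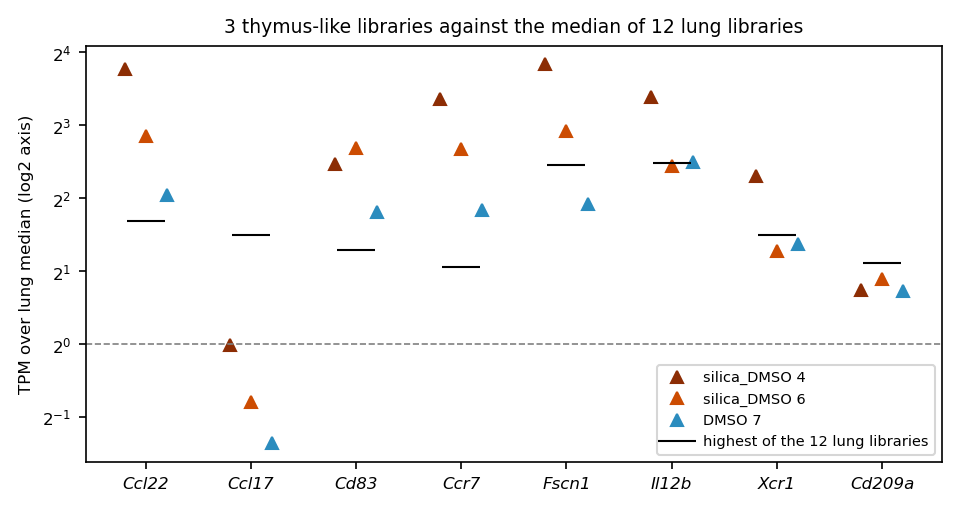
TPM of each gene in the 3 thymus-like libraries (triangles) as a multiple of the median of the 12 lung libraries (y axis, log2 scale); black bars mark the highest lung library and the dashed line the lung median. Ccl22, Cd83 and Ccr7 lie above the bar in all 3, and Ccl17 lies below the dashed line in all 3.

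Other genes of dendritic cell maturation did not pass the test in any of the 6 comparisons. Of 21 such genes, 20 passed the filter on low counts, and for silica against control 15 had a positive and 5 a negative log2 fold change, with a median of 0.45 against -0.030 over all genes. The smallest p-values belonged to the costimulatory ligand Cd80 (1.67 ± 0.39, SE, edgeR adjusted p = 0.288), the amino acid oxidase Il4i1 (2.06 ± 0.66, edgeR adjusted p = 0.548) and the NF-kB subunit Nfkb2 (0.84 ± 0.28, edgeR adjusted p = 0.581). In normalised CPM 8 of the 20 lay wholly above control in silica and 0 wholly below, against 5.41% and 5.19% of all genes. The summed TPM of the 21 ran from 595 to 1081 in silica and from 854 to 1071 in control, which overlap. Cd200 alone had 240 to 452 TPM in silica and 374 to 791 TPM in control. Lamp3, another of the 21, is also 1 of the 11 lung epithelial markers used here. For silica_DMSO against silica 8 of the 20 were positive, with a median of -0.050. Of 18 genes in the list of ligands, receptors, partners and Cd209a relatives, 16 were tested. For silica against control 12 were positive, with a median of 0.31. Of the 16, 0 lay wholly above control in silica and 1 wholly below, in normalised CPM. In that comparison the log2 fold changes were 0.27 ± 0.74 for Ccr4, 0.32 ± 0.80 for the CCR7 ligand Ccl19, 0.44 ± 0.87 for Xcl1, -0.94 ± 0.57 for the IL-12 subunit Il12a and 1.95 ± 0.85 for Il23a. The smallest p-values there were those of the scavenging chemokine receptors Ackr2 (-0.997 ± 0.41) and Ackr4 (-1.17 ± 0.59) and of Il23a, with edgeR adjusted p between 0.785 and 0.895.

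Markers of dendritic cell subsets gave 0 calls in the same comparisons. For silica against control, 8 of 13 genes of type 1 dendritic cells were positive (median 0.39), as were 7 of 9 tested genes of type 2 (median 0.75) and 2 of 4 shared by both (median 0.16). The smallest p-values were those of Gcsam (1.14 ± 0.49), the transcription factor Irf8 (0.71 ± 0.31) and the integrin Itgae (0.83 ± 0.36) for type 1. For type 2 they were those of the inhibitory receptor Sirpa (0.96 ± 0.37), the transcription factor Klf4 (-1.002 ± 0.44) and Tnip3 (1.25 ± 0.55). Among the genes shared by both, Itgax, which encodes CD11c and is also carried by alveolar macrophages, stood at 1.29 ± 0.34 (SE, edgeR adjusted p = 0.411), Dpp4 at -0.88 ± 0.47 and the growth factor receptor Flt3 at 0.60 ± 0.36. The summed TPM of the type 1 markers ran from 401 to 523 in silica and from 198 to 480 in control, and that of the type 2 markers from 81.8 to 319 in silica and from 68.4 to 237 in control. These sums overlapped between the groups. Gene by gene in normalised CPM, 3 of 13 tested genes of type 1 lay wholly above control in silica, against 5.41% of all genes. So did 1 of 9 of type 2 and 1 of 4 shared by both. In each of these lists 1 gene lay wholly below, against 5.19% of all genes. The list of plasmacytoid dendritic cells had 3 of 8 positive genes (median -0.012) and 0 that parted the groups.

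The genes whose level followed each member most closely were sought among 12685 genes by Pearson's r of log2(TPM + 1) over the 12 lung libraries, as a description of libraries that differ in length bias. Ccl22 was closest to the myeloid receptor Cd300lf (0.958), Rgs16 (0.953) and Gla (0.948). Among the genes closest to Cd83 were Kif23 (0.975) and Tgfbi (0.972). Fscn1 was closest to the lysosomal thiol reductase Ifi30 (0.990), Atp6v0c (0.985) and Mfsd13a (0.981). Il12b was closest to Pbk (0.982), Mreg (0.977) and Ccnb2 (0.968), and Xcr1 to Rhbdl3 (0.985), Anln (0.976) and Rad51ap1 (0.975). Ccr7 was closest to Riox1 (0.964), Plk2 (0.963) and Myct1 (0.961), and Cd209a to Tmem14a (0.973), Dtd1 (0.962) and Chpt1 (0.952). For Ccl17 they were Tex49 (0.904), Mia (0.890) and Atp6v0b (0.889), of 558, 572 and 1000 bases. No gene appeared in the list of more than 1 member. With a pseudocount of 0.1, 15 of the 24 genes were again among the first 3, and the others ranked down to 21, Ccnb2 for Il12b, with Anln for Xcr1 at 20.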

How the data were processed

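RNA of mouse lung was measured in 15 libraries, and the labels gave their 4 groups. Expected counts were deposited by the authors, and 7.52% to 10.0% of them per library are fractional. A second deposited file gives TPM. Gene length, an other measure, came with both from the authors, as did 8 columns of their group means, left unused. Bowtie 0.12.2 and build mm8 are named, per the submitters' processing notes, and what program estimated the counts is not stated there. Of the identifiers, 91.3% were in the name table.

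Expected counts were rounded, which moved a library total by at most 53.9 counts. The 12 lung libraries were filtered with edgeR's filterByExpr (smallest count 10, smallest total 15), which left 17630 genes and all 8 members. They were scaled by TMM and tested by robust quasi-likelihood F tests on 4 group means. Benjamini-Hochberg adjustment ran over all genes, with calls at an adjusted p under 0.05. The SE is the log2 fold change divided by the root of F. The biological coefficient of variation was 0.520. Tools were R 4.3.3, edgeR 4.0.16, limma 3.58.1, DESeq2 1.42.0, data.table (version 1.17.8), Python 3.11.15 and matplotlib 3.10.9. The test was tried on simulated data, with 200 genes changed in silica against control. It called 0.5% of them at a 2-fold change, 41.5% at 4-fold and 97% at 16-fold. The SD and SE include the spread between libraries, and the floor of 3 counts covers counting error only.

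The members and gene lists were chosen with earlier results of these data known, so they are no independent support. All 8 members are reported in every comparison, the interaction partly as a range. Of the lists, called genes are named, or otherwise the 3 of smallest p in the dendritic cell lists and among ligands and receptors, with Ccr4, Ccl19, Xcl1, Il12a and Il23a in any case. The 3 genes of highest r per member are named among genes of at least 1 TPM, except 1 that is not reported here. Alternatives were all 15 libraries, DESeq2, DESeq2 size factors in edgeR, no filter, a replicate block, a covariate for counts in genes over 3000 bases, a fit of just the compared groups, and dropping each lung library in turn. Added after the data were seen were the 7 libraries with over 30% of counts in long genes, library totals without TMM, and the test of the covariate.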

Additional observations from a re-analysis of the deposited data

Results flagged for a closer look

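Among 24 groups of 4 libraries (8 genes in silica_DMSO, DMSO and control), 3 had a library far from the others, and about 1 in 20 groups is set apart by chance. All 3 concern DMSO 7, a thymus-like library. Ccl22 was at 31.77 TPM there, with a gap to the next DMSO library of 0.882 of the group's range. Cd83 was at 35.06 TPM (gap 0.842) and Il12b at 4.76 TPM (gap 0.928).

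The 3 thymus-like libraries enter no comparison of the reported fit, only the alternative with all 15 libraries. In all 3 of them 6 of the 8 genes were above all 4 controls, and the share of all genes doing so was not counted. The lowest of the 3 values was 31.77 TPM for Ccl22, 35.06 TPM for Cd83, 38.33 TPM for Ccr7 and 30.05 TPM for Fscn1. For Il12b it was 4.56 TPM and for Xcr1 3.06 TPM.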

How the results depend on the processing

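Of 832 recomputed log2 fold changes of the 8 genes (40 in the reported fit), 763 kept their direction and side of the threshold, 64 changed sign and 5 newly passed; the cause was not tested. DESeq2 called 141 genes for silica against control, 10 for silica_DMSO against DMSO, 63 for DMSO against control, 119 for silica libraries against those without and 1 for the interaction, with 1 of the 8 members (Ccl22) in the first and 1 in the fourth. The covariate for counts in long genes gave 48, 1, 1 and 57 genes for the first 4 of these and 1 and 2 members (Ccl22, and Ccl22 with Ccl17). Without a filter there were 21, 1 and 31 genes (silica against control, silica_DMSO against DMSO, pooled). All 15 libraries gave 0 and 0 for silica against control and pooled, library totals 4 and 5, and the 7 libraries of higher share 48 and 6. Fitting only the silica and control libraries gave 41.

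The labels share replicate numbers, and r of same-numbered libraries ran from -0.457 to 0.386 in 8 pairs, 3 over 0.1. In other pairs it ran from -0.636 to 0.636, so the check cannot tell whether the numbers mark something shared. The reported fit used no pairing. With the replicate block 0 genes were called for silica against control and 0 pooled. Under the block Ccl17 was -0.42 pooled, -1.52 for silica_DMSO against DMSO and -0.33 for silica_DMSO against silica. Ccr7 was -0.48, -0.37 and -0.10 for silica_DMSO against DMSO, silica_DMSO against silica and DMSO against control. In the first 2 of these Cd83 was -0.37 and -0.45 and Xcr1 0.44 and 0.14, and Cd209a was 0.49 in the second.

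Signs also turned under other settings. With all 15 libraries, silica_DMSO against silica gave 0.90 for Ccl22, 0.30 for Cd209a, 0.82 for Fscn1, 0.24 for Il12b and 0.26 for Xcr1. Ccr7 was 0.54 pooled, Fscn1 0.42 for DMSO against control and Xcr1 0.40 for silica_DMSO against DMSO. With the covariate, DMSO against control gave -0.65 for Ccl17, -0.066 for Ccr7 and 0.15 for Fscn1, silica_DMSO against DMSO -0.024 for Ccr7 and -0.22 for Fscn1, and silica_DMSO against silica -0.15 for Cd83. By library totals Ccr7 was -0.13, -0.39 and -0.29 for DMSO against control, silica_DMSO against DMSO and silica_DMSO against silica, Xcr1 0.21 in the second and Cd83 -0.46 in the third. In the 7 libraries of higher share, which hold 1 DMSO and 1 silica_DMSO library, each assumed to vary like the other groups, DMSO against control gave -0.22 for Ccl17 and -0.050 for Il12b, and silica_DMSO against DMSO -1.07 for Ccr7 and 1.04 for Xcr1. Silica_DMSO against silica gave -0.14 for Ccl17, -0.18 for Ccr7, 0.72 for Cd209a, -0.46 for Cd83 and 0.13 for Xcr1 there.

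Leaving out 1 library gave 1 to 13 genes for silica against control (3, 7 and 13 without silica 1, DMSO 4 and DMSO 6, 2 without silica 7 and 1 without any other), 0 to 3 for silica_DMSO against DMSO, 0 to 2 for DMSO against control, 0 to 2 for silica_DMSO against silica, 1 to 16 pooled (16 without silica_DMSO 2, 11 without DMSO 4, 9 without silica 7 and fewer without any other) and 0 to 2 for the interaction, with 0 members called each time. A lone library in a group is then assumed to vary like the others. Of the folds that changed sign, silica against control ran from -0.011 (without silica 7) to 1.60 for Ccl17 and from -0.48 to 0.021 (without silica 1) for Ccr7. For silica_DMSO against DMSO, Ccl17 ran from -1.37 to 3.05, Cd83 from -0.28 to 0.98, Ccr7 from -0.69 to 0.54 and Xcr1 from -0.996 to 0.54, each changing sign without silica_DMSO 5, and Ccr7 and Xcr1 also without DMSO 4. There Fscn1 ran from -1.46 to 0.76 and Il12b from -0.98 to 1.20, changing sign without silica_DMSO 2. DMSO against control ran from -0.070 (without DMSO 4) to 2.04 for Ccl17, from -0.16 (without DMSO 6) to 0.25 for Ccr7 and from -0.22 to 0.030 (without control 1) for Fscn1. For silica_DMSO against silica, Ccl17 ran from -0.92 to 3.02, Cd83 from -0.58 to 0.68, Ccr7 from -0.43 to 0.81, Xcr1 from -1.19 to 0.34 and Cd209a from -0.72 to 0.37, each changing sign without silica_DMSO 5, and Cd209a also without silica 7. Pooled, Ccl17 ran from -0.27 (without silica_DMSO 5) to 1.94, Fscn1 from -0.11 to 1.02 and Xcr1 from -0.077 to 0.71 (both lowest without silica_DMSO 2), and Ccr7 from -0.43 to 0.18, changing sign without silica_DMSO 2, silica 1 or DMSO 6. With the thymus-like libraries in, group means moved by over 1 SD for 5 of 8 genes in DMSO and 5 of 8 in silica_DMSO.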
